A study of Mus musculus with 6 samples.

Results

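The sequences described here are fragments of mature tRNA-Tyr-GTA and tRNA-Asn-GTT, both encoded in the nucleus. They were taken from a count table of 38798 distinct small RNA sequences by one rule. Every annotation of a sequence had to be a mature tRNA-Tyr or tRNA-Asn, so precursor fragments and sequences shared with another tRNA stayed out. The rule gave 1152 members, 506 of mature-tRNA-Tyr-GTA and 646 of mature-tRNA-Asn-GTT, each 15 to 45 nt long. A further 14 sequences shared with other tRNAs, with 78 counts in all, were left out.

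The cells were primary mouse pulmonary artery smooth muscle cells, labelled wild type. The hypoxia group was held at 3% oxygen for 24 h, and the normoxia group was cultured in standard conditions. Each group had 3 libraries, called biological replicates by the study, which set out to find tRNA-derived small RNAs (tsRNAs) that respond to hypoxia. Small RNA libraries followed the Pandora-seq strategy, in which enzymes take off RNA modifications that block adapter ligation or reverse transcription. How many animals or cell isolations lie behind the cultures is not stated, so the p-values measure only the spread between these cultures. The table lists tRNA fragments alone, so the cell type could not be checked against marker genes.

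Both tRNAs belong to a group of 4 nuclear tRNAs, with tRNA-Asp-GTC and tRNA-His-GTG, that carry queuosine. Queuosine is a modified guanosine at position 34, the first base of the anticodon, and mammalian cells make it from queuine taken up from outside. In tRNA-Tyr it carries a further galactose. Cuts in or next to the anticodon loop split a tRNA into long 5′ and 3′ fragments, while cuts in the D loop or T loop leave short fragments of the 2 ends. Short 3′ fragments that keep the CCA tail can be bound by Argonaute proteins in mammalian cells. Genes for tRNA-Tyr hold an intron after position 37, which is spliced out before the mature tRNA is used. In human cells oxidative stress is known to yield fragments from the tRNA-Tyr precursor, and in mice with a mutant RNA kinase Clp1 such precursor fragments accumulate.

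The full-length forms are shown because every position below refers to them. They were assembled from overlapping members of the deposited table. Capitals mark the anticodon and the CCA tail, which is added after transcription.
tRNA-Tyr: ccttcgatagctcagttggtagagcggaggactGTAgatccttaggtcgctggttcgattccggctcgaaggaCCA
tRNA-Asn: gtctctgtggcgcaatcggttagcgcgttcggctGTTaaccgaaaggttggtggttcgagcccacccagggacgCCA
Positions are counted from 1 at the 5′ end of these sequences. The tRNA-Tyr anticodon spans positions 34 to 36. tRNA-Asn has an extra base before the anticodon, so its anticodon spans bases 35 to 37, and base 35 is the position that convention calls 34.

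All 506 tRNA-Tyr and all 646 tRNA-Asn members could be placed at 1 site each with at most 1 mismatch. Exact matches made up 275 tRNA-Tyr members with 93.4% of the counts, and 590 tRNA-Asn members with 99.5%. The RefSeq annotation of GRCm38, the assembly behind the build mm10 named in the submitters' processing notes, lists 10 tRNA-Tyr genes, n-TYgta1 to n-TYgta10. They lie on chromosomes 3, 5, 13 and 14, and 6 of them cluster on chromosome 13 between 23425646 and 23467165. Their lengths of 86 to 93 bases exceed the 73 bases of the tRNA without its tail by 13 to 20 bases. The 13 tRNA-Asn genes, n-TNgtt2 to n-TNgtt14, are all 74 bases long, with 6 of them on chromosome 3. A fragment cannot be assigned to 1 of these gene copies.

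The libraries held between 330787 and 2563749 tsRNA counts, and the members made up 3.13%, 2.71% and 3.02% of the counts in hypoxia libraries 1, 2 and 3, against 2.88%, 3.12% and 3.17% in normoxia libraries 1, 2 and 3. The number 1 library of each group was the shallowest of its group, with 510519 counts in hypoxia and 330787 in normoxia. These libraries stood apart from the other 4 in the makeup of the members: 50.0% of the tRNA-Tyr counts in hypoxia library 1 and 50.4% in normoxia library 1 were internal fragments, against 12.7% to 13.3% in the other 4. Values are therefore also given without both number 1 libraries where they matter. Levels are counts scaled to a library total of 1000000 tsRNA counts (CPM), so they are shares of the tRNA fragments. In bulk RNA, fewer cells of a type and less RNA per cell cannot be told apart.

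Fragments of mature-tRNA-Tyr-GTA reached 23368, 21774 and 24882 CPM in hypoxia libraries 1, 2 and 3, against 22449, 25881 and 25835 CPM in normoxia libraries 1, 2 and 3. Those of mature-tRNA-Asn-GTT reached 7915, 5368 and 5344 CPM in hypoxia, against 6364, 5359 and 5895 CPM in normoxia. The groups overlapped for both tRNAs. In an edgeR quasi-likelihood fit over the sums of 77 tRNAs, hypoxia over normoxia was −0.02 on the log2 scale for tRNA-Tyr (SE 0.41, adjusted p = 0.996) and 0.13 for tRNA-Asn (SE 0.28, adjusted p = 0.996). The sign of the tRNA-Tyr value was positive with DESeq2 size factors, at 0.08, and the tRNA-Asn value was −0.07 without both number 1 libraries. That fit called 0 of the 77 sums, which is 0%, and neither tRNA was among the 2.6% that were lower at an unadjusted p under 0.05. With the replicate number also in the fit 6.49% of the sums were called, and neither tRNA was among them. The log2 ratio of tRNA-Tyr to tRNA-Asn counts was 1.56, 2.02 and 2.22 in hypoxia libraries, against 1.82, 2.27 and 2.13 in normoxia libraries, so tRNA-Tyr fragments were the more abundant in each of the 6.

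The 2 tRNAs were cut in different places. Most tRNA-Tyr fragments reached its 3′ terminus, from 69.9% of its counts in hypoxia library 1 to 87.8% in hypoxia library 2. tRNA-Asn fragments came mostly from its 5′ end in 4 libraries. In the number 1 libraries, fragments that reach the 3′ terminus held 39.1% of tRNA-Asn counts in hypoxia and 33.3% in normoxia. Fragments that start at position 1 held 33.8% and 35.1% there. By deposited class, internal fragments led in the number 1 libraries for both tRNAs, with 52.8% in hypoxia and 51.5% in normoxia for tRNA-Asn. That class includes stops at C and CC of the tail. Fragments with the whole CCA tail took a mean of 62.8% of the tRNA-Tyr counts over the 6 libraries, against 16.9% for tRNA-Asn. Fragments that start at position 1 took a mean of 10.2% for tRNA-Tyr, against 54.3% for tRNA-Asn, where they ranged from 33.8% to 69.5%. Both differences had the same sign in 6 of 6 libraries (exact sign-flip test over libraries, two-sided p = 0.031, the smallest it can give, adjusted p = 0.037 over 13 comparisons). The 2 shares are parts of 1 whole, so these are not separate results. Across all other sequences of the table the CCA class held a mean of 3.8% of counts, below tRNA-Tyr and below tRNA-Asn in 6 of 6 libraries (exact sign-flip test, adjusted p = 0.037 each). These other sequences include precursor and mitochondrial fragments. Other mature nuclear tRNAs were not compared by themselves, so a high CCA share is not shown to be particular to these 2 tRNAs.

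**Figure D1:**
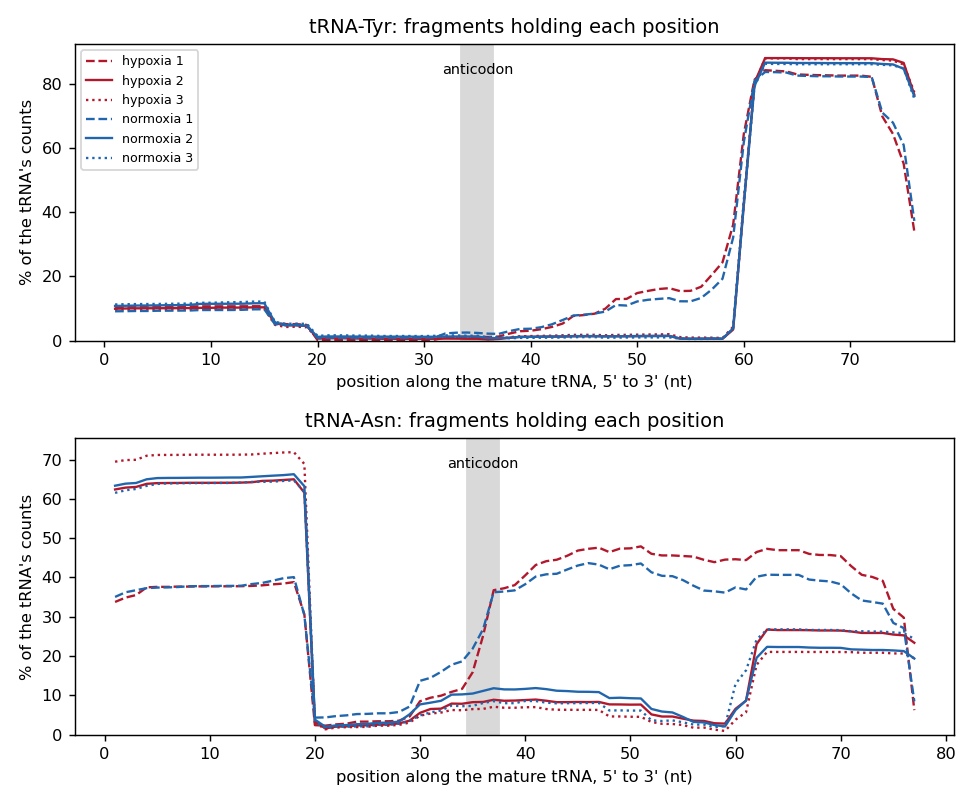
Share of each tRNA's counts in fragments that hold each position of the mature tRNA (y axis, percent; x axis, position in nt), 1 line per library, hypoxia red and normoxia blue, with the anticodon in grey. tRNA-Tyr counts pile up past position 60, and tRNA-Asn counts before position 20 outside the number 1 libraries. The dashed lines of both number 1 libraries run higher over the interior of tRNA-Asn.

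A few sequences carried most of each tRNA's counts. The 3 most abundant held 71.3% of the tRNA-Tyr counts and 67.9% of the tRNA-Asn counts, while 109 tRNA-Tyr and 163 tRNA-Asn members had a single count in all. These are the leading 3′ fragments, shown because they differ only in where they start and in how much of the tail they keep. Capitals mark bases of the CCA tail.
Tyr 60-76: tccggctcgaaggaCCA
Tyr 61-76: ccggctcgaaggaCCA
Tyr 62-76: cggctcgaaggaCCA
Tyr 60-75: tccggctcgaaggaCC
Asn 62-77: ccacccagggacgCCA
Asn 60-77: gcccacccagggacgCCA
Asn 37-76: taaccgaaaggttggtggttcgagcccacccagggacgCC

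The 17-nt fragment Tyr 60-76, which begins in the T loop and ends in the full tail, was the most abundant member. It had 4115, 7393 and 8679 CPM in hypoxia libraries 1, 2 and 3, against 4332, 8766 and 8801 CPM in normoxia libraries 1, 2 and 3. The number 1 libraries were the lowest of both groups, and the groups overlapped (edgeR log2 difference −0.15, SE 0.70, adjusted p = 0.9996). Tyr 61-76, shorter by 1 base, had 2911, 7326 and 8164 CPM in hypoxia against 3195, 8659 and 8518 CPM in normoxia. Tyr 62-76 had 709, 1684 and 2005 CPM in hypoxia, against 626, 1886 and 1813 CPM in normoxia. The start thus slid over 3 neighbouring bases in every library while the end stayed on the last base of the tail.

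Tyr 60-75 lacks the terminal A of the tail and went the other way between libraries. It had 2072, 917 and 937 CPM in hypoxia, against 2113, 1045 and 1008 CPM in normoxia, with the number 1 libraries highest in both groups. Its log2 difference was −0.10 (SE 0.47, edgeR adjusted p = 0.9996). Among all tRNA-Tyr fragments that reach the 3′ terminus, those with the whole tail made up 48.7%, 87.3% and 88.6% in hypoxia libraries, against 52.5%, 88.4% and 87.7% in normoxia libraries. Those that stop at CC made up 30.2%, 11.3% and 9.88% in hypoxia, against 33.3%, 9.91% and 11.04% in normoxia. The groups overlapped, and what set the values apart was the number 1 libraries.

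tRNA-Asn showed the same split between libraries, and more of it. Whole tails made up 15.99%, 90.3% and 93.3% of its 3′ terminal fragments in hypoxia, against 25.5%, 89.9% and 92.9% in normoxia. Stops at CC made up 60.1%, 7.30% and 5.76% in hypoxia, against 55.8%, 8.78% and 5.60% in normoxia. With the deposited classes, which put stops at C and CC among internal fragments, the whole tail as a share of 3′ ends with and without CCA averaged 95.3% in hypoxia and 97.3% in normoxia for tRNA-Tyr (SD 7.89 and 4.37, n = 3 each, exact permutation p = 0.8). For tRNA-Asn it averaged 81.4% in hypoxia and 87.4% in normoxia (SD 29.99 and 20.7, n = 3 each, exact permutation p = 0.5). With 3 against 3 libraries, 0.1 is the smallest p this test can reach.

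**Figure D2:**
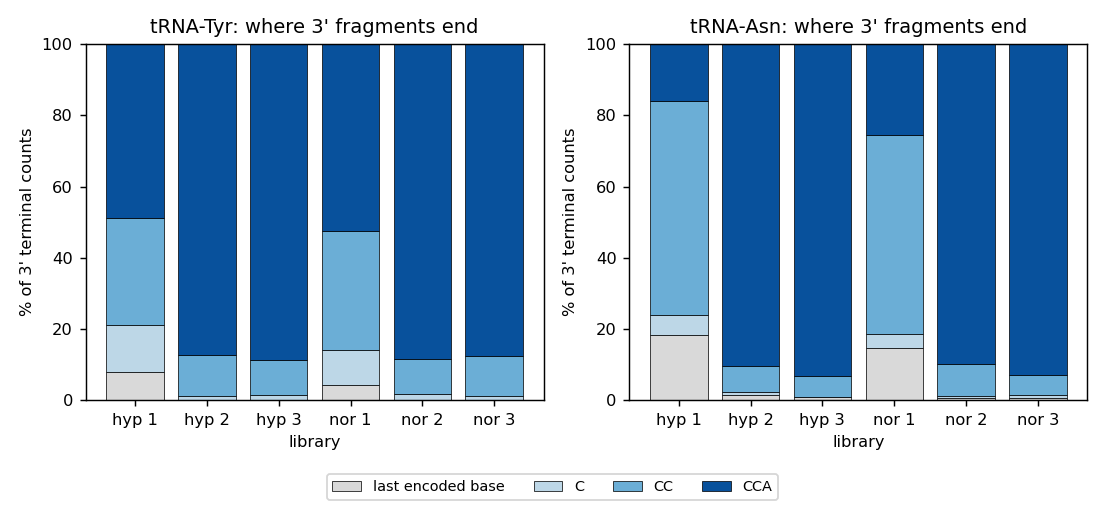
Where the 3′ terminal fragments of each tRNA end (y axis, percent of 3′ terminal counts; x axis, library), stacked by the amount of tail they keep. Hypoxia 1 and normoxia 1 hold 48.7% and 52.5% whole tails for tRNA-Tyr, and the other 4 libraries hold 87.3% or more.

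The long CC-ended fragments of tRNA-Asn lay almost wholly in the number 1 libraries. Asn 37-76, a 40-nt fragment that starts at the last anticodon base, had 599, 8.19 and 4.08 CPM in hypoxia libraries, against 342, 4.96 and 2.45 CPM in normoxia libraries. Asn 37-74, which stops before the tail, had 119, 0 and 1.17 CPM in hypoxia, against 69.5, 3.61 and 0 CPM in normoxia, and did not pass the filter on low counts. The leading tRNA-Tyr fragment of that kind, Tyr 59-73, had 274, 5.85 and 13.4 CPM in hypoxia, against 163, 3.61 and 14.1 CPM in normoxia. All tRNA-Asn fragments that start in or just after the anticodon and reach the 3′ terminus summed to 1739, 25.4 and 6.42 CPM in hypoxia, against 862, 25.7 and 16.6 CPM in normoxia. No such fragment of tRNA-Tyr was counted in any library, which allows up to 0.0404% of its counts in the shallowest, normoxia library 1, and up to 0.00523% in normoxia library 2, which had the most tRNA-Tyr counts (3 counts of the library's tRNA-Tyr total, counting error only). Position 58, a site of 1-methyladenosine in many tRNAs, was held by 86.8%, 6.93% and 3.24% of the 3′ terminal tRNA-Asn counts in hypoxia, against 77.5%, 5.42% and 6.11% in normoxia. For tRNA-Tyr these shares were 13.5%, 0.157% and 0.265% in hypoxia, against 8.45%, 0.178% and 0.210% in normoxia. A fragment that holds this base was thus more common in the number 1 libraries of both groups; depth and replicate number move together here, and their part in it was not tested.

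Fragment length followed the same libraries. The mean length of tRNA-Asn fragments was 25.9, 18.8 and 18.6 nt in hypoxia libraries, against 24.5, 18.9 and 18.7 nt in normoxia libraries (exact permutation p = 0.9). For tRNA-Tyr it was 17.5, 16.4 and 16.4 nt in hypoxia, against 17.1, 16.4 and 16.5 nt in normoxia (exact permutation p = 1.0). Over the 6 libraries tRNA-Tyr fragments averaged 16.7 nt, shorter than the 20.9 nt of tRNA-Asn and the 22.0 nt of all other sequences in each library (exact sign-flip test, adjusted p = 0.037 each). Between tRNA-Asn and the other sequences the test found no difference in length (adjusted p = 0.344).

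At the 5′ end the 2 tRNAs stopped at different bases of the D arm. The leading 5′ fragments are shown for where they stop, and for a base at which tRNA-Tyr members differ; capitals mark that base.
Tyr 1-15: ccttcgatagctcag
Tyr 1-19 with T16C: ccttcgatagctcagCtgg
Tyr 1-19: ccttcgatagctcagTtgg
Asn 1-19: gtctctgtggcgcaatcgg
T16C has T at position 16 of the assembled tRNA-Tyr and C in the fragment. Fragments that start at position 1 stopped at position 15 in 49.6%, 50.2% and 53.6% of tRNA-Tyr counts in hypoxia libraries, against 51.5%, 55.3% and 56.3% in normoxia libraries. A second stop at position 19 took 44.1%, 38.6% and 34.2% in hypoxia, against 41.4%, 31.6% and 33.2% in normoxia. tRNA-Asn had no fragment that stopped at position 15, and its stop at position 19 took 74.4%, 91.2% and 92.8% in hypoxia, against 70.2%, 91.4% and 92.5% in normoxia.

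Asn 1-19 was the leading tRNA-Asn fragment. It had 1984, 3035 and 3434 CPM in hypoxia, against 1560, 3084 and 3339 CPM in normoxia (edgeR log2 difference 0.04, SE 0.66, adjusted p = 0.9996). Tyr 1-15 had 1216, 1086 and 1291 CPM in hypoxia, against 1055, 1546 and 1638 CPM in normoxia (edgeR log2 difference −0.31, SE 0.55, adjusted p = 0.9996). Asn 1-18, shorter by 1 base, had 625, 180 and 147 CPM in hypoxia, against 608, 177 and 168 CPM in normoxia, so it was highest in the number 1 libraries, where Asn 1-19 was lowest. In libraries 2 and 3 Tyr 1-15 was lower in hypoxia, and in library 1 it was higher. The 5′ class as a share of tRNA-Tyr counts averaged 10.03% in hypoxia and 10.4% in normoxia (SD 0.417 and 1.12, n = 3 each, exact permutation p = 0.7). For tRNA-Asn it averaged 55.2% in hypoxia and 53.3% in normoxia (SD 18.9 and 15.8, n = 3 each, exact permutation p = 0.9).

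The tRNA-Tyr members differed in their letters mainly at 2 positions. C at position 16 made up 59.5%, 64.9% and 68.1% of the counts that hold this base in hypoxia libraries, against 66.5%, 66.2% and 65.1% in normoxia libraries. The groups overlapped. At position 59, in the T loop, T was the base in 72.5%, 34.6% and 38.6% of counts in hypoxia, against 75.1%, 38.1% and 36.4% in normoxia. C was the base there in 7.14%, 41.3% and 46.2% in hypoxia, against 6.79%, 45.1% and 39.5% in normoxia. Position 59 thus divided the number 1 libraries from the rest and not hypoxia from normoxia. tRNA-Asn was nearly uniform: base 21 alone had a second letter above 1%, with C in 3.61% of the counts that hold it.

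**Figure D3:**
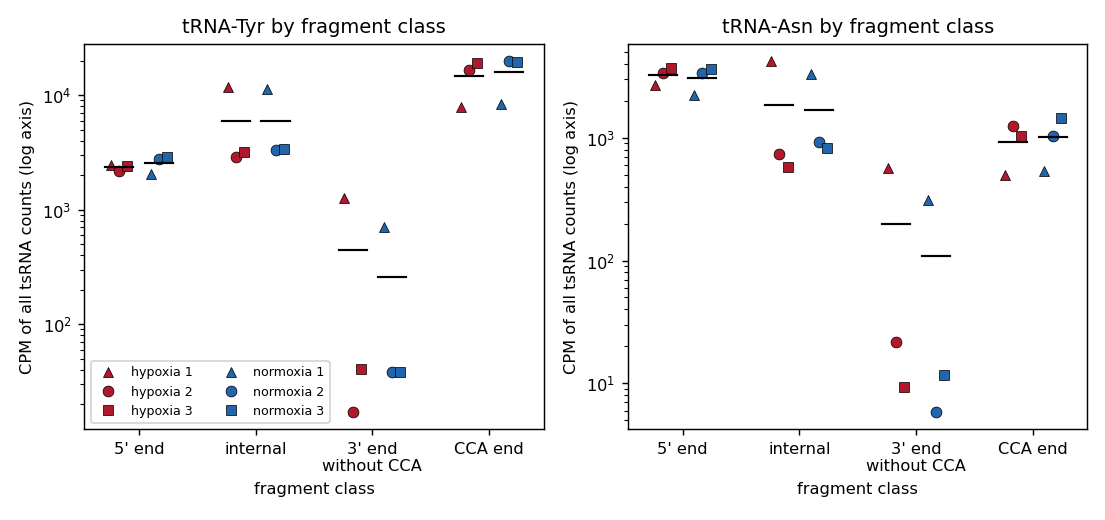
Levels of the 4 deposited fragment classes of tRNA-Tyr and tRNA-Asn (y axis, CPM on a log scale; x axis, class), with a point per library and a bar at the mean of each group. In each class the hypoxia and normoxia points overlap; hypoxia 1 and normoxia 1 (triangles) are highest in the internal and 3′ end classes and lowest in the CCA class.

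No fragment class differed between groups past the threshold. In the edgeR fit of 240 class sums, which called 0%, the tRNA-Tyr log2 differences were −0.24 for 5′ ends (SE 0.50), −0.08 for internal fragments (SE 0.42), 0.68 for 3′ ends without CCA (SE 1.60) and −0.14 for CCA ends (SE 0.80). Those of tRNA-Asn were 0.02 (SE 0.59), −0.01 (SE 0.61), 0.84 (SE 1.73) and −0.14 (SE 0.81) in the same order. Every adjusted p in these 8 classes was 0.998 in that fit. At an unadjusted p under 0.05 it held 0.833% of all classes higher and 0.417% lower, and none of these 8. Without both number 1 libraries the standard errors of these 8 lay between 0.15 and 0.65, and no adjusted p was under 0.156. The sign of the tRNA-Tyr 3′ end value was then negative, at −0.45.

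Among single sequences, 60 of 506 tRNA-Tyr members and 49 of 646 tRNA-Asn members passed the filter on low counts. They held 97.6% and 91.0% of their tRNA's counts. The edgeR fit of all 6452 tested sequences called 0 of these 109, where the background was 0% as well, and DESeq2 and limma voom also called 0 of them. At an unadjusted p under 0.05, 0 of the 109 were higher and 1 was lower, against 0.279% higher and 0.418% lower of all tested. With the replicate number in the fit, 0 of the 109 were called against 0.155% of all tested, and at an unadjusted p under 0.05 there were 2 higher and 4 lower, against 3.41% and 2.98% of all tested. Of the 109, 3 had groups that did not overlap, all of tRNA-Tyr, which is 2.75% against 4.84% of all tested sequences. The median log2 difference was −0.03 for the tRNA-Tyr and −0.10 for the tRNA-Asn sequences tested, and 0.02 for all tested.

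The only sequence below that unadjusted threshold in the fit with the group alone was Tyr 9-35, which starts just before the D arm and ends inside the anticodon. It and its neighbours are shown because they hold position 34; capitals mark anticodon bases.
Tyr 9-35: agctcagttggtagagcggaggactGT
Tyr 9-37: agctcagttggtagagcggaggactGTAg
Tyr 21-37: agagcggaggactGTAg
Tyr 32-46: ctGTAgatccttagg
Tyr 9-35 had 0, 12 and 6 counts in hypoxia libraries (0, 4.68 and 3.50 CPM), against 7, 54 and 45 counts in normoxia libraries (21.2, 24.3 and 27.6 CPM). The groups did not overlap. Its log2 difference was −2.89 (SE 0.998, edgeR unadjusted p = 0.0203, adjusted p = 0.9996), and the counts are small. It passed the filter on low counts only through the normoxia libraries, so the filter itself favoured a lower value in hypoxia.

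Tyr 9-37, longer by 2 bases, had 0, 8.58 and 5.25 CPM in hypoxia, against 9.07, 28.9 and 12.9 CPM in normoxia. Hypoxia was below normoxia in each of the 3 pairs of libraries, and the lowest normoxia library stood just above the highest hypoxia one (edgeR log2 difference −1.75, SE 1.12, adjusted p = 0.9996, and −0.90 without normoxia library 2). Of all tested sequences 13.4% were likewise lower in each of the 3 pairs. Tyr 21-37 had 0, 5.85 and 12.3 CPM in hypoxia, against 6.05, 13.1 and 20.9 CPM in normoxia, with overlap. Tyr 9-37 and Tyr 21-37 also passed the filter on low counts mainly through the normoxia libraries. That favoured a lower value in hypoxia. Tyr 32-46, the leading fragment of this region, had 153, 6.63 and 28.6 CPM in hypoxia, against 278, 25.2 and 33.1 CPM in normoxia, again with overlap.

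The other members with the smallest unadjusted p in each direction stayed far from the threshold too, each with an adjusted p of 0.9996 in the edgeR fit with the group alone. On the higher side, Tyr 37-53, which starts at the last base before the splice site, had 33.3, 33.9 and 16.9 CPM in hypoxia, against 30.2, 12.2 and 9.82 CPM in normoxia (log2 difference 0.82, SE 0.65), and was higher in each of the 3 pairs. Tyr 1-16 had 5.88, 24.2 and 28.6 CPM in hypoxia, against 9.07, 17.1 and 6.75 CPM in normoxia. Asn 4-19, a copy of the leading 5′ fragment that lacks its first 3 bases, had 149, 40.6 and 54.3 CPM in hypoxia, against 27.2, 47.8 and 44.2 CPM in normoxia. The groups overlapped in all of these. Asn 36-74, a 39-nt fragment from the anticodon to the last base before the tail, had 52, 26 and 0 counts in hypoxia, against 7, 0 and 0 counts in normoxia. On the lower side, Asn 5-19 had 3.92, 8.19 and 9.92 CPM in hypoxia, against 9.07, 14.9 and 28.2 CPM in normoxia (log2 difference −1.26, SE 0.87, and −0.54 without normoxia library 3). It was lower in each of the 3 pairs, with overlap. Asn 32-47, which spans the anticodon, had 13.7, 1.56 and 5.25 CPM in hypoxia, against 12.1, 6.76 and 25.2 CPM in normoxia. It too passed the filter on low counts mainly through the normoxia libraries. Named for their abundance, and not for a small p, were Asn 60-77 and Asn 62-77. Asn 60-77, the longer of the CCA-ended fragments printed for tRNA-Asn, had 35.3, 194 and 152 CPM in hypoxia, against 78.6, 219 and 603 CPM in normoxia (log2 difference −1.29, SE 1.03). Without normoxia library 3 the log2 difference was −0.11. Asn 62-77 had 147, 734 and 602 CPM in hypoxia, against 169, 539 and 445 CPM in normoxia (log2 difference 0.35, SE 0.87).

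Fragments that hold position 34 were a small part of tRNA-Tyr and made up less of it in hypoxia. Their share was 1.18%, 0.561% and 0.818% in hypoxia libraries 1, 2 and 3, against 2.505%, 1.26% and 1.52% in normoxia libraries 1, 2 and 3. Every hypoxia library lay below every normoxia library, and the mean difference was −0.907 percentage points (0.854% in hypoxia and 1.76% in normoxia, SD 0.312 and 0.657, n = 3 each). The exact permutation p was 0.1, the smallest this design allows, and 0.5 after adjustment over the 10 shares and lengths tested. Without both number 1 libraries the difference was −0.699 points. The share was 0.472, 0.445 and 0.540 times that of the same-numbered normoxia library in pairs 1, 2 and 3. The groups did overlap when sequences under 18 nt were left out (exact permutation p = 0.3) and when each sequence was counted once (exact permutation p = 0.5). The lower share was not particular to position 34. Position 20 was held by 0.134%, 0.623% and 0.753% of tRNA-Tyr counts in hypoxia, against 0.781%, 1.16% and 1.47% in normoxia. Position 30 was held by 0.210%, 0.527% and 0.701% in hypoxia, against 0.875%, 1.18% and 1.40% in normoxia. Neither overlapped between groups, positions 36 and 38 did, and none of these was tested.

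**Figure D4:**
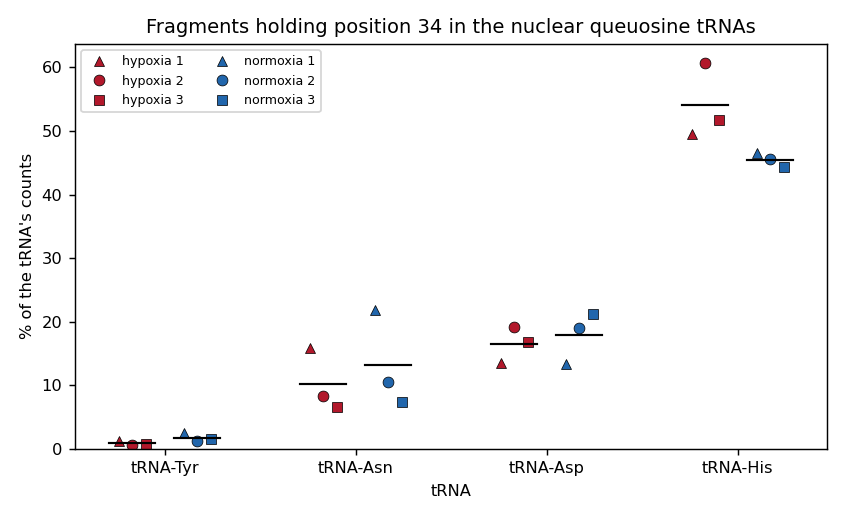
Share of counts in fragments that hold position 34, the queuosine site, for the 4 nuclear queuosine tRNAs (y axis, percent of the tRNA's counts; x axis, tRNA), with a point per library and a bar at each group mean. tRNA-Tyr lies between 0.561% and 1.18% in hypoxia and between 1.26% and 2.505% in normoxia; tRNA-His lies higher in hypoxia, and tRNA-Asn and tRNA-Asp overlap.

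Letters alone do not show which of these fragments were cut from spliced tRNA. A fragment that ends by position 37 has the same letters in the mature tRNA and in the 5′ exon of the precursor. The table annotates 364 sequences to the tRNA-Tyr precursor. Of the 286 that hold positions 29 to 37 and a further base, 249 go on with another letter than the mature position 38, as in the one shown here, where capitals mark the bases past position 37.
Tyr precursor fragment: agagcggaggactgtagTC
It had 0, 21 and 15 counts in hypoxia, against 26, 31 and 23 counts in normoxia. The members that hold position 34 were therefore divided at the splice site, a division chosen after their values were seen and given without a test.

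Most of these tRNA-Tyr members, 94 of 110, end by position 37, and they hold 76.6% of the counts. Position 37 itself, the last base before the intron, is the end of 37.2% of the counts, position 35 of 32.2% and position 46 of 19.4%. The members that end by position 37 summed to 35.3, 100.2 and 160 CPM in hypoxia, against 169, 294 and 333 CPM in normoxia, with no overlap. The other 16 members run past the splice site into the letters of the 3′ exon, as spliced tRNA does. They summed to 241, 21.8 and 43.8 CPM in hypoxia, against 393, 32.5 and 58.3 CPM in normoxia, with overlap. Within each pair of libraries hypoxia was lower in both kinds.

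Sequences annotated to the tRNA-Tyr precursor, which are no members, summed to 56.8, 199 and 196 CPM in hypoxia, against 768, 343 and 445 CPM in normoxia. They too did not overlap between groups, so both these sums were lower in hypoxia. Among single sequences 4.84% of all tested did not overlap, and no such share was taken over sums, so how common this is was not tested. Whether those members come from the precursor was not tested. Members that cross from position 37 to 38, whether or not they hold position 34, summed to 294, 58.5 and 75.3 CPM in hypoxia, against 438, 46.9 and 75.5 CPM in normoxia. These junction fragments were lower in hypoxia in pair 1, higher in pair 2 and nearly equal in pair 3.

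**Figure D5:**
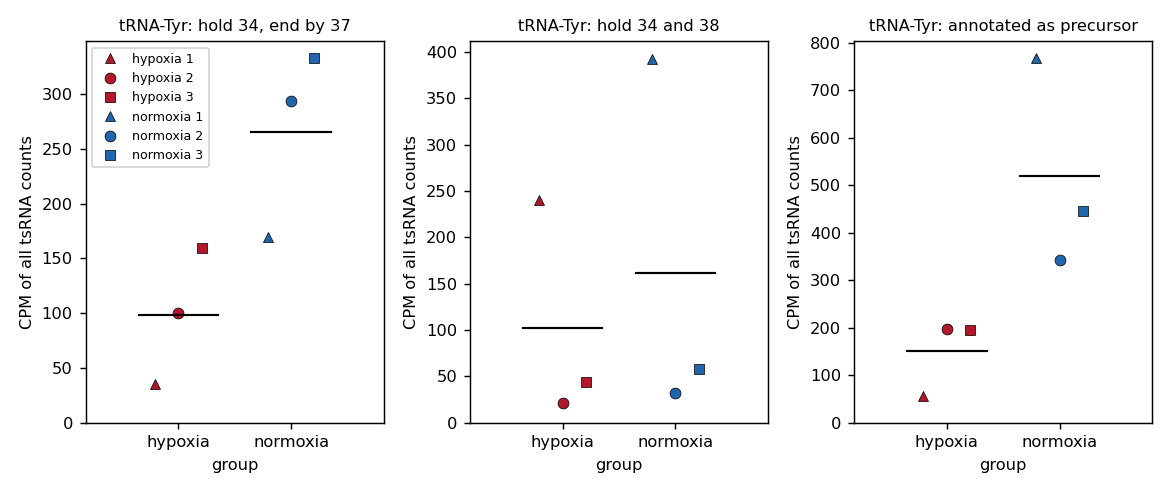
Levels (y axis, CPM) in hypoxia and normoxia (x axis) of tRNA-Tyr members that hold position 34 and end by position 37, of those that also hold position 38, and of sequences annotated to the tRNA-Tyr precursor; points are libraries and bars are group means. The first and the last panel have no overlap between groups, and in the middle panel the number 1 libraries lie far above the others.

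For tRNA-Asn, whose genes have no intron by their length, the share with position 34 was 15.9%, 8.30% and 6.53% in hypoxia, against 21.9%, 10.5% and 7.36% in normoxia. Hypoxia was lower in each of the 3 pairs, but the groups overlapped (10.2% in hypoxia and 13.2% in normoxia on average, SD 4.97 and 7.65, n = 3 each, exact permutation p = 0.6). For tRNA-Asp the share was 13.5%, 19.1% and 16.8% in hypoxia, against 13.3%, 18.9% and 21.3% in normoxia (exact permutation p = 0.8). For tRNA-His it was 49.6%, 60.7% and 51.8% in hypoxia, against 46.5%, 45.6% and 44.3% in normoxia, with no overlap and in the opposite direction to tRNA-Tyr (exact permutation p = 0.1, adjusted p = 0.5). Over the 6 libraries the mean share was 1.31% for tRNA-Tyr, below 11.7% for tRNA-Asn, 17.1% for tRNA-Asp and 49.7% for tRNA-His in each library (exact sign-flip test, adjusted p = 0.037 each). tRNA-Asn was below tRNA-Asp in 4 of 6 libraries, and the test did not separate them (adjusted p = 0.271).

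As whole sums, 0 of the 8 tRNAs of the queuosine amino acids, 4 nuclear and 4 mitochondrial, passed the edgeR threshold (background 0%). Mitochondrial tRNA-Tyr, which is read from its own gene and used in the organelle, had 1165, 963 and 802 CPM in hypoxia, against 807, 1429 and 1916 CPM in normoxia. The groups overlapped (edgeR log2 difference −0.57, SE 0.56, adjusted p = 0.996). Mitochondrial tRNA-Asn had 1211, 725 and 686 CPM in hypoxia, against 1070, 752 and 765 CPM in normoxia (edgeR log2 difference 0.08, SE 0.28, adjusted p = 0.996). Across the 6 libraries, by log2(CPM + 1), the tRNAs whose level moved most like tRNA-Tyr among 75 compared were mitochondrial Gln-TTG (Pearson r 0.717), nuclear Ile-TAT (0.697) and mitochondrial Tyr-GTA (0.644). Those most like tRNA-Asn were nuclear Trp-CCA (0.954), mitochondrial Asn-GTT (0.937) and mitochondrial Leu-TAA (0.916). These are descriptions over 6 points that share library depth, and for tRNA-Asn all 3 were highest in the number 1 libraries of both groups.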

How the data were processed

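The authors deposited raw counts per distinct small RNA sequence, not normalized, with tRNA annotations and a class for each sequence. Per the labels' protocols, total RNA was extracted with TRIzol and libraries followed Pandora-seq. The build mm10 comes from the submitters' processing notes. Names of the aligner, tRNA reference and filters were not given in the sources used here. Without molecular identifiers, intervals and limits cover counting error only.

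The members and lists were chosen with earlier results of these data known. Groups came from the sample titles. Members were joined into a full-length form by overlaps of 11 bases, and placed with at most 1 mismatch. Sequences, sums by tRNA and sums by tRNA and class over the whole table were each fitted with edgeR 4.0.16 (quasi-likelihood, TMM, filterByExpr, group alone) in R 4.3.3, with Benjamini-Hochberg adjustment and a threshold of 0.05. The fit was run on simulated counts with less spread than these data and no difference between replicates. That run does not show which changes the fit can find here. DESeq2 1.42.0 and limma 3.58.1 were alternatives, as were other scalings, filters, a replicate block and libraries left out. For shares and lengths an exact permutation test was used, two-sided (SciPy 1.17.1), which cannot go below 0.1 with 3 against 3 libraries. The tRNAs were compared with each other by exact sign-flip tests over the 6 libraries. These tests take the libraries as independent, although the number 1 libraries departed from their group means together.

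Pairs of libraries in the text are those with the same replicate number in their titles. Libraries with one number departed from their group means together, with correlations of 0.81, 0.53 and 0.45. With the number 1 libraries left out this correlation was −0.028. A shared departure was thus seen for the number 1 libraries only, and the values do not show that numbers 2 and 3 pair the samples.

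Single sequences were named by rule: those past the threshold, the 5 most abundant of each tRNA, the most abundant of each class, and the 2 higher and 2 lower with the smallest unadjusted p per tRNA at a mean of at least 10 CPM. Some further sequences were printed to show variants and sites: Tyr 1-19 with either base 16, Tyr 21-37, Tyr 32-46 and the precursor fragment.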

Additional observations from a re-analysis of the deposited data

How the results depend on the processing

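In the fits of sequences, sums and classes, no tRNA-Tyr or tRNA-Asn difference between hypoxia and normoxia crossed its threshold under any alternative run. The replicate block changed none of these calls (0 of 109 sequences with and without it). For shares and lengths the exact tests cannot go below 0.1 with 3 against 3 libraries or with fewer. That they did not cross 0.05 was thus fixed in advance. No alternative was applied to the comparisons between tRNAs. The lower tRNA-Tyr share with position 34 kept its sign throughout, with a difference of −1.16 to −0.535 points when 1 library was left out and −0.847 for positions 33 to 35 held together. Its groups did not overlap, so leaving out libraries could not reverse the sign. Positions 33 to 35 are held by nearly the same fragments, so that sign is no separate support. The difference was −0.265 for members past the splice site and −0.642 for those before it, a division added after the data were seen, −6.24 among members of 18 nt or more and −6.02 with each sequence counted once. Other values lay near 0 beside their spread and changed sign, and the cause was not tested. The log2 difference of the tRNA-Tyr sum was 0.085 with DESeq2 size factors and with DESeq2, 0.077 with limma voom, 0.021 with the replicate block and 0.023 with replicate 1 as a batch. The tRNA-Asn sum was −0.065 with replicates 2 and 3 only. The median over all 77 tRNA sums was 0.073 with TMM, 0.15 with DESeq2 size factors and −0.043 with library size only. tRNA-Asn 5′ ends were at −0.034 with replicates 2 and 3 only, and tRNA-Asn internal fragments at 0.045 with DESeq2 size factors and with DESeq2, 0.13 with library size only, 0.074 with no filter and 0.056 with sequences of one tRNA. tRNA-Tyr 3′ ends were at −0.13 with limma voom, −0.040 with the replicate block and −0.45 with replicates 2 and 3 only, and tRNA-Tyr internal fragments at 0.0029 with no filter. Tyr 62-76 was at 0.024 with library size only, 0.013 with no filter, 0.052 with limma voom, 0.045 with the replicate block and 0.050 with replicate 1 as a batch. Asn 1-18 was at −0.041 with DESeq2 size factors, −0.00015 with library size only, −0.040 with DESeq2, −0.042 with limma voom, −0.050 with the replicate block, −0.047 with replicate 1 as a batch and −0.12 with replicates 2 and 3 only, where Asn 1-19 was at −0.028. With members of 18 nt or more, the difference was 1.55 points in the tRNA-Tyr 5′ share and −0.20 nt in its mean length. With each sequence counted once it was 1.23 points in the tRNA-Asn share with position 34, −0.39 nt in tRNA-Tyr length and −0.0056 nt in tRNA-Asn length. With replicates 2 and 3 only it was 0.037 points in the tRNA-Tyr CCA share of 3′ ends, −0.047 nt in tRNA-Tyr length and −0.11 nt in tRNA-Asn length. Leaving out each library in turn gave log2 differences of −0.31 to 0.19 for the tRNA-Tyr sum and −0.079 to 0.26 for the tRNA-Asn sum. For tRNA-Tyr classes it gave −0.66 to 0.0058 (5′ ends), −0.40 to 0.078 (internal), −2.16 to 2.34 (3′ ends) and −0.63 to 0.28 (CCA ends), and for tRNA-Asn classes −0.41 to 0.36, −0.71 to 0.23, −1.72 to 3.31 and −0.63 to 0.36. For single sequences it gave −0.53 to 0.23 (Tyr 60-76), −0.61 to 0.25 (Tyr 61-76), −0.46 to 0.41 (Tyr 62-76), −0.28 to 0.014 (Tyr 60-75), −1.97 to 2.83 (Tyr 59-73), −0.56 to 0.46 (Asn 1-18), −0.35 to 0.37 (Asn 1-19), −3.50 to 5.08 (Asn 37-76) and −0.083 to 0.85 (Asn 62-77). For shares it gave −1.003 to 0.060 points (tRNA-Tyr 5′), −7.23 to 12.6 (tRNA-Asn 5′), −5.95 to 1.32 (tRNA-Asn with position 34), −4.52 to 2.56 (tRNA-Tyr CCA) and −17.9 to 11.3 (tRNA-Asn CCA), and for length −0.27 to 0.30 nt (tRNA-Tyr) and −2.02 to 2.28 nt (tRNA-Asn). Single sequences that did not pass a filter have no value under that alternative, such as Asn 36-74 and Asn 37-76 with replicates 2 and 3 only.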

Other observations

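Further values of the members are descriptions, and no test between the groups is given for them. Over the 6 libraries 57 tRNA-Tyr and 55 tRNA-Asn members had a count in every library. Of the tRNA-Tyr members 428 were internal fragments, with 16.3% of the counts, 46 were 3′ ends without CCA, with 0.527%, 28 were 5′ ends, with 10.4%, and only 4 were CCA ends, with 72.8%. Of the tRNA-Asn members 587 were internal, with 18.8% of the counts, 31 were 3′ ends, with 0.979%, 22 were 5′ ends, with 60.3%, and 6 were CCA ends, with 19.9%. Most distinct sequences of both tRNAs were thus internal fragments, while most counts lay at 1 end.

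Long 5′ fragments that start at position 1 and end in the anticodon loop were rare in both tRNAs. For tRNA-Tyr they summed to 0, 7.02 and 12.8 CPM in hypoxia libraries 1, 2 and 3, against 3.02, 14.4 and 17.8 CPM in normoxia libraries 1, 2 and 3, lower in hypoxia in each of the 3 pairs and with overlap. For tRNA-Asn they summed to 19.6, 4.29 and 0 CPM in hypoxia, against 21.2, 4.51 and 0.614 CPM in normoxia. tRNA-Asn fragments of 30 to 45 nt held 34.1%, 1.63% and 0.917% of its counts in hypoxia, against 26.4%, 1.60% and 1.22% in normoxia. tRNA-Tyr members with position 34 that start at position 9, Tyr 9-35 and Tyr 9-37 among them, summed to 9.79, 16.4 and 13.4 CPM in hypoxia, against 33.3, 79.8 and 64.4 CPM in normoxia, with no overlap. This start was picked out after the values were seen and has no test. Tyr 9-35 and Tyr 9-37 were named for their small unadjusted p on the lower side. Tyr 9-35 passed the filter only through normoxia, and Tyr 9-37 mainly so. The sum is therefore no separate support for a lower level.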
